A study of Mus musculus with 2 samples.

Results

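Bcl6, the partners it works with and the STAT5 branch of cytokine signalling were followed in the kidney of male mice that lack Iah1, which codes for a predicted esterase. The set was named as 9 genes: the repressors Bcl6 and Bcl6b, the corepressor genes Bcor, Ncor1 and Hdac3, the transcription factors Stat5a and Stat5b, and the feedback inhibitors Socs2 and Cish. Of these, 7 had a probe set that carries their symbol alone, out of 22180 genes measured in this way. The only probe set of Bcor also carries the symbol 2900008C10Rik, and Ncor1 was not analysed here. Bcl6 was chosen because its value was high in the Iah1-KO pool, so its difference is a description and supports nothing by itself.

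The Iah1-KO group consisted of males with a systemic knockout of Iah1, and the Iah1-WT group of males without it. Both groups were moved from chow to a high-fat diet at 6 weeks of age, ate it for 12 weeks in single housing, and were killed after 4 hours without food, so the effect of the diet itself cannot be read from these samples. The sources used here name neither the strain nor the deleted part of the gene. RNA of 3 kidneys was pooled for each genotype and hybridised to 1 array, which leaves no replicate, no test and no estimate of the spread between mice; the number of arrays limits the precision of every value below. Values are RMA expression measures on the log2 scale, 1 per probe set, and a difference is the Iah1-KO value minus the Iah1-WT value.

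BCL6 is a zinc finger repressor with a BTB domain, best known for holding germinal centre B cells and follicular helper T cells in their state. It silences its targets by recruiting corepressors such as NCOR1 with the deacetylase HDAC3, or BCOR, which belongs to a Polycomb complex. In mouse liver, growth hormone acts through the kinase JAK2 and STAT5, STAT5 lowers Bcl6 transcription, and BCL6 binds many of the DNA sites that STAT5 binds; BCL6 also represses fatty acid genes there that the receptor PPAR alpha activates. SOCS2 and CISH are induced by STAT5 and dampen the receptors upstream of it.

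The DNA letters shared by STAT5 and BCL6 were located in the members' promoters, because the 2 factors are known to recognise similar sites. RefSeq promoter windows (GRCm38.p6, 250 bases before and 50 bases after an annotated start) were given for 6 of the 9 genes and 11 starts. The STAT5 motif was searched as TTCNNNGAA, which reads the same on both strands and contains the BCL6 consensus TTCCTAGAA. Of all 32851 windows of this length, 8.30% held at least 1 TTCNNNGAA and 0.457% held at least 2. The 2 windows of Bcl6 and that of Cish are shown with each match in capitals, since they are the repressor that differed and a STAT5-induced gene.
Bcl6, upstream start, chr16:23988803-23989102, minus strand: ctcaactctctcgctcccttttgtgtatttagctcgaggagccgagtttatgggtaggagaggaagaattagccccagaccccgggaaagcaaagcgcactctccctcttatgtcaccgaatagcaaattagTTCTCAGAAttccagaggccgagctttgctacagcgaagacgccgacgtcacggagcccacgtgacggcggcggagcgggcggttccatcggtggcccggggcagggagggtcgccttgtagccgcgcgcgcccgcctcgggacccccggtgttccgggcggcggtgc
Bcl6, downstream start, chr16:23981234-23981533, minus strand: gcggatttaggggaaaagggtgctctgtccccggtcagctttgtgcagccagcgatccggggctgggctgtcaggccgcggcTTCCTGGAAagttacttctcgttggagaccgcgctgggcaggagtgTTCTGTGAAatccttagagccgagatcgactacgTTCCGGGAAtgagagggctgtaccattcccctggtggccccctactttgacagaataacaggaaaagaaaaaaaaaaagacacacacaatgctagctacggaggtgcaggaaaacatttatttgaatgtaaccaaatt
Cish, chr9:107296409-107296708, plus strand: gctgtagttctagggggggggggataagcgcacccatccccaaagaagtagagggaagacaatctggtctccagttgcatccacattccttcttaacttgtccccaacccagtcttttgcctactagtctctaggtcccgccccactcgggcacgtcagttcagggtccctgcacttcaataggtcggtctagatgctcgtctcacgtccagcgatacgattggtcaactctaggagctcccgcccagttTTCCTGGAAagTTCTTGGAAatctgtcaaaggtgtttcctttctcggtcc

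The upstream window of Bcl6 held 1 match, TTCTCAGAA, whose first base lies at -118 from the start. The downstream window held 3, TTCCTGGAA at -168, TTCTGTGAA at -122 and TTCCGGGAA at -88. Cish had 2 matches close together, TTCCTGGAA at 1 and TTCTTGGAA at 12, just inside the transcript. Of the other members, both overlapping windows of Bcor held the same TTCGGAGAA, and 1 of the 2 windows of Ncor1 held TTCCTAGAA at 6, the exact BCL6 consensus, which 0.411% of all windows contain. The 4 windows of Stat5a and Stat5b held none. A match describes letters only and says nothing about binding in these kidneys.

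**Figure D1:**
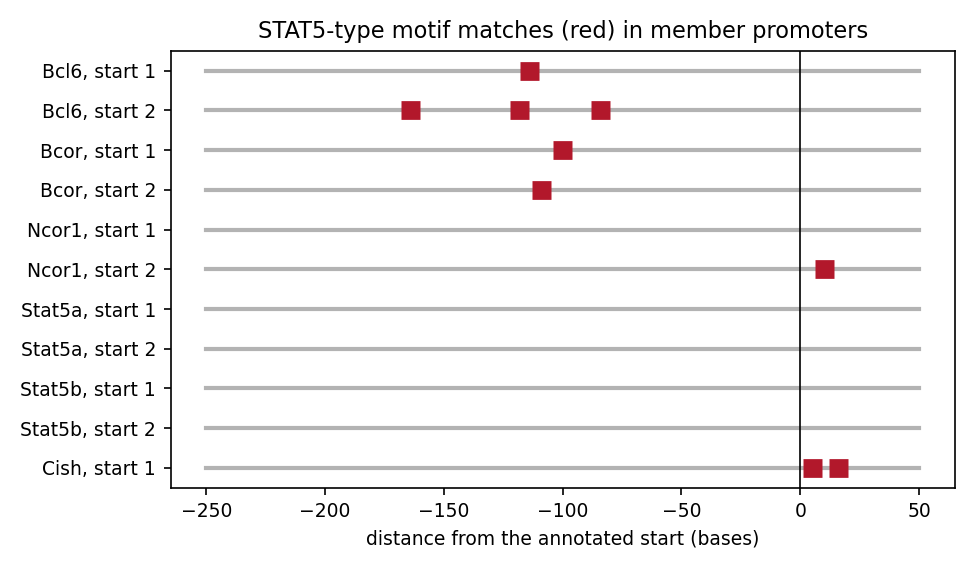
Position of TTCNNNGAA matches (red blocks) in the 11 RefSeq promoter windows of 6 member genes, by distance in bases from the annotated start; starts of a gene are numbered from upstream to downstream. The downstream start of Bcl6 has 3 matches and Cish has 2, whereas Stat5a and Stat5b have none.

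The arrays were first checked against their labels. Iah1 was at 3.60 in the Iah1-KO pool and 9.09 in the Iah1-WT pool, and its size of difference ranked first among the genes nearest in mean expression. Kidney markers were present: 8 of 8 proximal tubule and 9 of 9 distal nephron markers reached 6 in at least 1 pool, which served as the floor for the counts below. A total of 7671 genes reached this floor. Their median difference was 0.01, 52.4% of them lay above 0 and the middle 95% lay between -0.30 and 0.35.

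Bcl6 was at 8.57 in the Iah1-KO pool and 7.62 in the Iah1-WT pool. The difference of 0.96 is a 1.94-fold higher signal in the Iah1-KO pool. Among the 500 genes nearest to it in mean expression Bcl6 ranked 1, and the next highest, the glycosyltransferase gene Mgat3 (named after its values were seen), differed by 0.42. The robust SD of differences among those 500 genes was 0.11, and 95.6% of them lay within 0.25 of 0. Over all genes at or above the floor Bcl6 was the third highest. It was the only member past 1.5-fold, a size that 0.430% of the 7671 genes reached, 0.222% as higher and 0.209% as lower values in the Iah1-KO pool. Since Bcl6 was picked on this contrast, nothing follows from that share.

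Bcl6b, a close relative of Bcl6 expressed in activated T cells and in endothelium, did not share the difference. It was at 4.76 in the Iah1-KO pool and 4.78 in the Iah1-WT pool, both below the floor, with a difference of -0.02 against a robust SD of 0.26 at its expression. A change smaller than that spread could not be seen in a gene this dim.

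**Figure D2:**
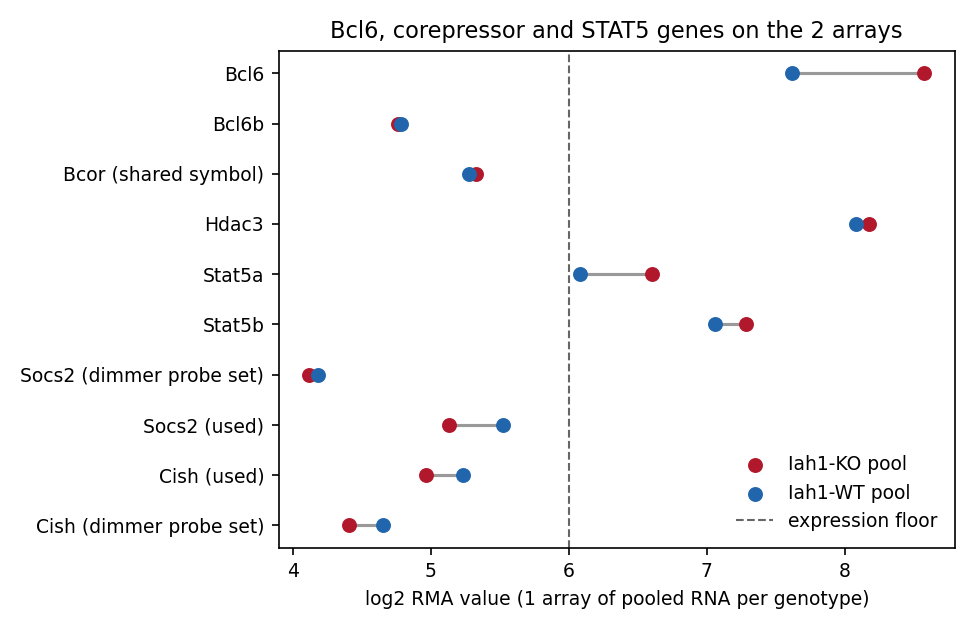
Log2 RMA values of the 10 probe sets that carry a member's symbol, in the Iah1-KO pool (red) and the Iah1-WT pool (blue), 1 array each; the dashed line is the expression floor of 6. Bcl6 shows the widest gap (8.57 and 7.62), Stat5a and Stat5b are higher in the Iah1-KO pool, and the Socs2 and Cish probe sets are lower there and below the floor.

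The corepressor genes that could be followed were nearly equal in both pools. Hdac3, the deacetylase of the NCOR complexes, was at 8.18 in the Iah1-KO pool and 8.08 in the Iah1-WT pool, a difference of 0.09 that ranked 175 by size among 500 genes of like expression. The probe set shared by Bcor and 2900008C10Rik was at 5.32 in the Iah1-KO pool and 5.28 in the Iah1-WT pool, and its signal cannot be assigned to Bcor. The other subunits of the complexes that BCL6 can use were followed as a list of 27 genes. The floor was reached by 22, of which 12 lay above 0 and 10 below, with a median of 0.02, and 0 were past 1.5-fold, a size only 0.430% of all genes reached. The 4 furthest from 0 were Hdac2, a deacetylase of the SIN3 and NuRD complexes, at -0.21, the class II deacetylase Hdac5 at 0.16, the Polycomb ubiquitin ligase Ring1 at -0.15 and Tbl1x, a core part of the NCOR complexes, at 0.13.

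Both STAT5 genes were higher in the Iah1-KO pool, Stat5a more than Stat5b. Stat5a, which is prominent in prolactin signalling, was at 6.60 in the Iah1-KO pool and 6.08 in the Iah1-WT pool. The difference of 0.52, or 1.44-fold, ranked 5 from the top and 8 by size among 500 genes of like expression, whose robust SD was 0.17. Stat5b, the main relay of growth hormone in male mouse liver, was at 7.28 in the Iah1-KO pool and 7.06 in the Iah1-WT pool. Its difference of 0.22, or 1.17-fold, ranked 64 by size of 500, with a robust SD of 0.12. The difference of Stat5a exceeded that of Stat5b by 0.30. Neither reached 1.5-fold. The proteins of the 2 genes are close relatives and the probe sequences were not used here, so signal shared between them was not tested.

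**Figure D3:**
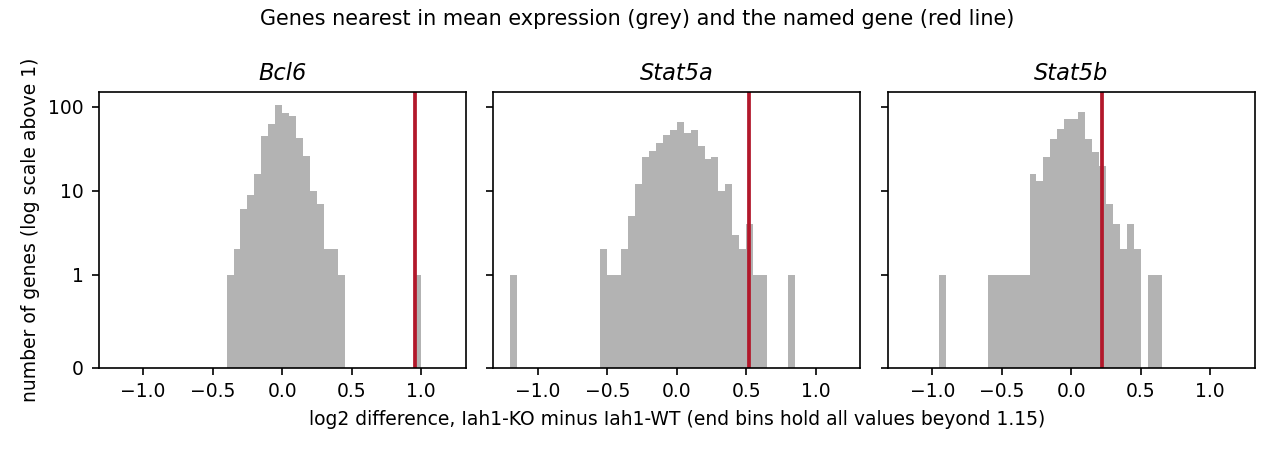
Histograms of the log2 difference (Iah1-KO minus Iah1-WT) of the 500 genes nearest in mean expression to Bcl6, Stat5a and Stat5b (grey, number of genes on a log scale above 1), with the named gene as a red line. Bcl6 at 0.96 stands clear of the next gene at 0.42, Stat5a at 0.52 lies in the upper tail, and Stat5b at 0.22 lies at the edge of the bulk.

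The feedback inhibitors ran the other way but were dim. Socs2, which limits growth hormone receptor signalling, was at 5.13 in the Iah1-KO pool and 5.52 in the Iah1-WT pool in its brighter probe set, a difference of -0.39 that ranked 51 by size of 500 (robust SD 0.22). Its other probe set, at 4.12 in the Iah1-KO pool and 4.18 in the Iah1-WT pool, differed by only -0.06, so the 2 probe sets of Socs2 disagreed in size. Cish, an inhibitor that binds cytokine receptors, was at 4.96 in the Iah1-KO pool and 5.24 in the Iah1-WT pool, with a difference of -0.27 that ranked 135 by size of 500 (robust SD 0.25). The other Cish probe set, at 4.41 in the Iah1-KO pool and 4.65 in the Iah1-WT pool, gave -0.24. All 4 probe sets were lower in the Iah1-KO pool, none reached the floor, and the Cish difference was about the size of the spread of genes this dim. Without a floor, 1.42% of all 22180 genes were lower by at least 1.5-fold, and neither Socs2 nor Cish was among them.

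Of the 7 members with their own probe set, 4 reached the floor (Bcl6, Hdac3, Stat5a and Stat5b) and 3 did not (Bcl6b, Socs2 and Cish). Reaching the floor through the higher value did not favour Bcl6, Hdac3, Stat5a or Stat5b, each of which was at or above 6 in both pools.

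**Figure D4:**
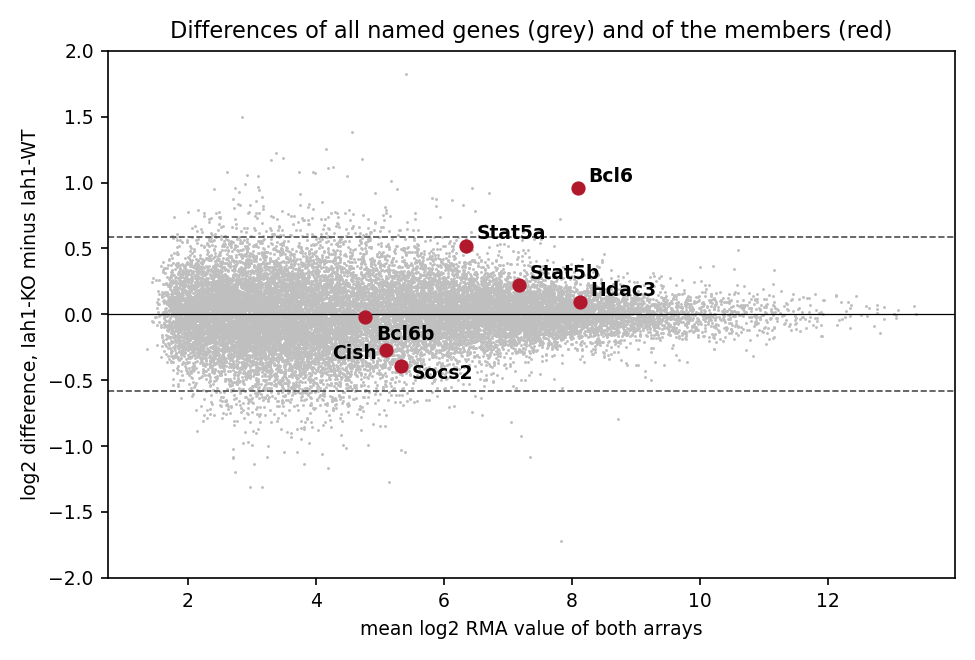
Log2 difference (Iah1-KO minus Iah1-WT) against mean log2 value for all 22180 named genes (grey) and the 7 members (red); dashed lines mark 1.5-fold, and 2 genes lie outside the plotted range. Bcl6 lies above the 1.5-fold line where the spread of all genes is narrow, and that spread widens towards dim values, where Socs2, Cish and Bcl6b lie.

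The genes beside the members on the chromosome were compared as well, a choice made after the members' values were known. The order was that of RefSeq, with 3 measured genes on each side. Around Bcl6 the 6 neighbours differed by between -0.07 and 0.17, the highest being Lpp, which codes for a focal adhesion protein. Stat5b, Stat5a and Stat3 stand next to each other on chromosome 11, with differences of 0.22, 0.52 and 0.08. Their outer neighbours Ghdc and Cavin1 differed by -0.09 and -0.11. The differences of Bcl6 and of Stat5a were larger than that of any of the 6 genes beside each. Only 2 of the 6 neighbours of Bcl6 were at or above the floor, against 5 of the 6 of Stat5a. Since Bcl6 was picked for its high Iah1-KO value, nothing follows from its place among its neighbours.

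The genes most like Bcl6 in pattern were taken as those with the nearest difference over the 2 arrays. They were Tmem26 (0.92), Snai2, a zinc finger repressor of epithelial genes (0.87), the ribosomal protein gene Rpl34 (0.87), the immunoglobulin segment Igh-VS107 (0.83) and the chemokine gene Cxcl9 (0.82). Only Tmem26 was at or above 6 in both pools. Snai2, Rpl34, Igh-VS107 and Cxcl9 reached the floor through their Iah1-KO values alone, with Iah1-WT values of 5.43, 5.69, 5.89 and 5.47. The robust SD of like genes was 0.16 to 0.21 for these genes, against 0.11 for Bcl6. With 1 array per genotype the likeness to Bcl6 rests on a single difference for each gene.

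Other parts of the pathway were described through lists, each read against the median of 0.01 over all genes at or above the floor. The other 43 BTB zinc finger genes had 14 at or above the floor, 8 above 0 and 6 below, with a median of 0.02. Zbtb16, which codes for the repressor PLZF, was the 1 gene of this list past 1.5-fold, at 6.31 in the Iah1-KO pool and 5.57 in the Iah1-WT pool. Only its Iah1-KO value was thus at or above 6. Of all genes at or above the floor, 0.222% were higher by that size. Zbtb10 differed by -0.49, Zbtb21 by -0.22 and Zbtb18 by 0.22. Zbtb18 also reached the floor through its Iah1-KO value alone, with 5.99 in the Iah1-WT pool. Of 11 genes known to act on Bcl6, such as the FOXO factors that activate its transcription, 6 were at or above the floor, 2 above 0 and 4 below, with a median of -0.06. Fbxo11, the ubiquitin ligase subunit that marks BCL6 for destruction, differed by -0.14, Foxo1 by -0.12, Foxo4 by -0.09 and Stat3 by 0.08; 0 were past 1.5-fold.

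Upstream of STAT5, 11 of 23 receptor and kinase genes were at or above the floor, 8 above 0 and 3 below, with a median of 0.07. None was past 1.5-fold, which at the 0.430% of all genes past it says nothing particular about so short a list, and the same holds for the counts of 0 in the other lists. The Janus kinase gene Tyk2 was at 6.36 in the Iah1-KO pool and 5.92 in the Iah1-WT pool, a difference of 0.44 that ranked 22 by size of 500. Csf2ra, a receptor chain for GM-CSF, differed by 0.23, the adaptor gene Grb2 by -0.19 and the scaffold gene Gab2 by 0.13. Tyk2 and Csf2ra reached the floor through their Iah1-KO values alone, with Iah1-WT values of 5.92 and 5.82. The median of this list was 0.05 with the floor on the mean of both pools, 0.009 with a floor of 7 and 0.02 without a floor. Ghr and Jak2, the growth hormone receptor and its kinase, were named after their values were seen and differed by -0.08 and -0.02. The other STAT genes at or above the floor were Stat2 at -0.21, Stat3 at 0.08 and Stat6 at 0.02.

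Among 15 other inhibitors of JAK-STAT signalling, 8 were at or above the floor, 7 above 0 and 1 below, with a median of 0.11 and 0 past 1.5-fold. Socs4, which restrains EGF receptor signalling, was at 6.82 in the Iah1-KO pool and 6.48 in the Iah1-WT pool. Ptpn11, the gene of the phosphatase SHP2, was at 7.85 in the Iah1-KO pool and 7.57 in the Iah1-WT pool and ranked 15 by size of 500 with a difference of 0.28. Socs7 differed by 0.13 and Pias2 by 0.12. The other 7 lay below the floor, named here after they were seen: Socs1 at -0.45, Socs3 at -0.27, Socs5 at -0.14, Socs6 at -0.09, Ptpn1 at 0.04, Ptprc at 0.12 and Pias3 at 0.21.

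Genes that STAT5 is known to induce in liver, mammary gland or blood cells showed no common direction. Of 20 genes, 8 were at or above the floor, 5 above 0 and 3 below, with a median of 0.06 and 0 past 1.5-fold. Ccnd1, the cyclin D1 gene, was at 9.54 in the Iah1-KO pool and 9.25 in the Iah1-WT pool, a difference of 0.29 that ranked 10 by size of 500. The kinase gene Pim1 differed by 0.21, Hnf4a, a nuclear receptor of proximal tubule and liver, by 0.16 and the stress gene Gadd45g by -0.15. The other 12, Igf1 and the milk genes Csn2 and Wap among them, lay below the floor.

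Lipid genes that BCL6 is known to repress or bind in mouse liver were mostly lower in the Iah1-KO pool. Of 21 genes, 14 were at or above the floor, of which 2 lay above 0 and 12 below, with a median of -0.13. The list was written with the values of Cyp4a14 and Pdk4 known, so its direction is not independent evidence. Cyp4a14, a fatty acid omega-hydroxylase, was the 1 gene past 1.5-fold, at 6.97 in the Iah1-KO pool and 8.69 in the Iah1-WT pool. Of all genes at or above the floor, 0.209% were lower by that size. Without Cyp4a14 the median of the other 13 was -0.12. Leaving out 1 gene can hardly move a median, and Pdk4 stayed in, so this value adds no support. Pdk4, which restrains pyruvate oxidation, differed by -0.56, the thioesterase gene Acot1 by -0.39 and Angptl4, a secreted lipase inhibitor, by -0.36. Further genes, named after their values were seen, were the peroxisomal enzyme gene Ehhadh at -0.26, and Plin2, Cpt1a and Ppara itself at 0.05, 0.01 and -0.02. Below the floor were 3 genes, of which the lipid droplet gene Cidec differed by -0.64, the hormone gene Fgf21 by -0.53 and the fatty acid binding protein gene Fabp1 by 0.85.

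Of 26 genes that BCL6 is known to repress in lymphocytes or macrophages, 7 were at or above the floor, 3 above 0 and 4 below, with a median of -0.01 and 0 past 1.5-fold. The survival gene Bcl2 differed by 0.19, the DNA damage kinase gene Atr by -0.18, the cell cycle inhibitor gene Cdkn1a by -0.09 and Id2 by -0.05. Genes whose sex bias in mouse liver depends on growth hormone pulses and STAT5b had 5 of 16 at or above the floor, all 5 below 0, with a median of -0.16 and 0 past 1.5-fold. This list too was written with earlier results of these data known, so its direction is not independent evidence. Cyp2d9, a male-biased P450 gene, was at 6.84 in the Iah1-KO pool and 7.40 in the Iah1-WT pool. Cyp7b1, an oxysterol hydroxylase gene that is also male-biased, differed by -0.25, the female-biased Cyp2a4 by -0.16 and Ugt2b38 by -0.06. At or above the floor, the male-biased Cyp2d9 and Cyp7b1 and the female-biased Cyp2a4 thus lay on the same side. The fifth gene, Trim24, was at -0.01. Without a floor 3 genes lay above 0 and 10 below, with a median of -0.07, from Serpina1e at -0.88 to Mup20 at 0.48. These 3 genes were named after their values were seen.

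**Figure D5:**
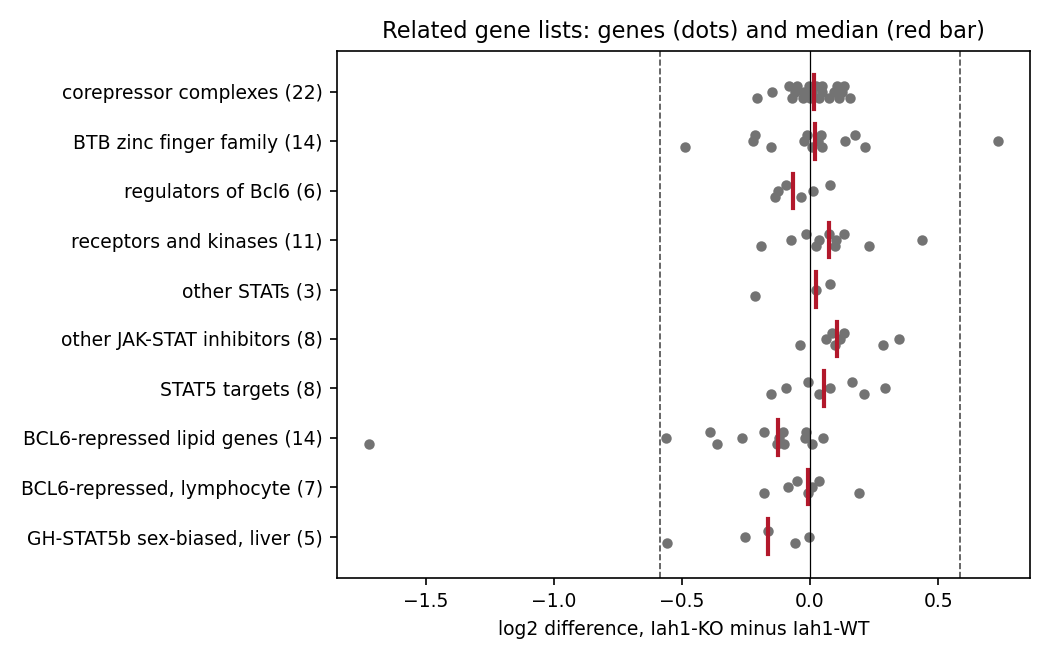
Log2 difference (Iah1-KO minus Iah1-WT) of each gene at or above the expression floor (dots), by list, with the list's median as a red bar and the number of genes in brackets; dashed lines mark 1.5-fold. The lipid genes have the largest spread to the left, down to Cyp4a14 at -1.72, and the corepressor subunits lie between -0.21 and 0.16.

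Markers of the cells that Bcl6 is best known from were given beside its value. In pooled whole kidney, fewer cells of a type and less RNA per cell cannot be told apart. Of 8 B cell markers 1 reached the floor, Ighm at 8.16 in the Iah1-KO pool and 7.93 in the Iah1-WT pool. Ighm had 7 probe sets, and its values here and in the sum over the 8 come from the brightest alone. At or below the array's median lay 7 of the 8 in the Iah1-KO pool (median 4.03) and 5 in the Iah1-WT pool (median 4.05). Ms4a1 and Cd79a were among them in both pools. Summed over the 8 on the linear scale, the signal was 371 in the Iah1-KO pool and 335 in the Iah1-WT pool, most of it from Ighm; the other 7 summed to 84.4 in the Iah1-KO pool and 90.7 in the Iah1-WT pool. Of 10 T cell markers 0 reached the floor, and the sums were 140.4 in the Iah1-KO pool and 140.2 in the Iah1-WT pool.

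Macrophage markers had 4 of 10 genes at or above the floor, 3 above 0 and 1 below, with a median of 0.26 and summed signals of 751 in the Iah1-KO pool and 675 in the Iah1-WT pool. Lyz2 differed by 0.63, Cx3cr1 by 0.41, Csf1r by 0.11 and C1qb by -0.01, and only the Iah1-KO value of Cx3cr1 was at or above 6. With the floor set on the mean of both pools the median was 0.11. The 6 markers below the floor, named after they were seen, were Itgax at 0.77, C1qc at 0.30, C1qa at 0.04, Itgam at -0.01, Cd68 at -0.23 and Adgre1 at -0.73, and thus lay on both sides of 0. Endothelial markers had 8 of 8 at or above the floor, 7 above 0, with a median of 0.13 and sums of 2151 in the Iah1-KO pool and 2030 in the Iah1-WT pool. The part of these cells in the values of Bcl6 and Stat5a was not tested. Proximal tubule markers summed to 25872 in the Iah1-KO pool and 25611 in the Iah1-WT pool, with a median of 0.04. Adipocyte markers had 1 of 6 at or above the floor, Fabp4 at -0.07, and hepatocyte markers 4 of 7. Of these 4, Alb (0.40) and Apoa2 (0.38) lay above 0 and Ttr (-0.19) and Cyp2e1 (-0.11) below, with a median of 0.14. The sum over all 7 was 7651 in the Iah1-KO pool and 8186 in the Iah1-WT pool. Most of it came from Cyp2e1, at 12.29 in the Iah1-KO pool and 12.40 in the Iah1-WT pool, and Ttr, at 10.98 and 11.17. The sum therefore describes these 2 genes more than the list. Distal nephron markers had a median of 0.08, with 5 above 0 and 4 below, from Atp6v1g3 at -0.81 to Aqp2 at 0.49. Their mean was -0.01, and their median was -0.04 with a floor of 7. Of 4 podocyte markers 2 reached the floor, with a median of 0.06.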

How the data were processed

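Kidney RNA pooled from 3 males per genotype was labelled from 100 ng and hybridised to 1 Affymetrix array per genotype, per the labels. The log2 values are as deposited. The submitters' processing notes name RMA and, as software, Affymetrix Expression Console 1.3.0. RMA gives both arrays a common distribution, so a shift of most transcripts would not be seen, and it shrinks the differences of dim probe sets. Of 41345 probe sets, 23521 carried exactly 1 gene symbol in the platform annotation, covering 22180 genes; 1082 genes had several, and the brightest probe set was used. Differences were computed with Python 3.11.15, numpy 2.4.6 and pandas 2.3.3 without further normalization. The rank and the robust SD (median absolute deviation times 1.4826) used the 500 genes nearest in mean expression, the gene itself included, after checks on simulated data. Genes were counted where the higher value was at least 6. Of 291 list entries, 262 matched a measured gene (1 by an older name) and the others were not analysed here. Named were the members, Iah1, up to 4 genes furthest from 0 per list and the 5 genes nearest to Bcl6 in difference, where predicted genes, small RNAs, Riken clones and olfactory receptors were skipped. Members and lists were chosen with earlier results of these data known. Alternatives were other floors, thresholds, windows, centring, loess on mean expression (statsmodels 0.14.6, span 0.3), the mean over probe sets and list means. Promoter sequences are RefSeq's.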

Additional observations from a re-analysis of the deposited data

How the results depend on the processing

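The differences of the 7 members moved by less than the robust SD of like genes in 21 of 21 alternative values (mean over probe sets, centring, loess). Much of this was fixed in advance. The mean over probe sets returns the same value for a gene with 1 probe set, and centring takes the same small amount from every gene. Only loess, and the probe set means of Socs2 and Cish, could have moved a value further. Bcl6 lay between 0.95 and 0.96, Stat5a between 0.50 and 0.52, and Socs2 between -0.40 and -0.23. The 1 member past 1.5-fold became 0 at 2-fold. Genes past the threshold over all genes, 17 higher and 16 lower in the Iah1-KO pool, depended on the floor: 55 and 57 with a floor of 5, 4 and 6 with a floor of 7, 221 and 316 with none, and 11 higher with the floor on the mean. At 2-fold, with the floor kept at 6, they were 1 and 3. Of 143 alternative list values 137 moved by less than the robust SD over all genes (0.13). That limit is the spread of single genes and exceeds most list medians, so a median could change sign and still count as unmoved. The median of the STAT5 targets ran from -0.01 to 0.07 and that of the other STAT genes from -0.04 to 0.05. The count therefore does not show that the small list medians are stable. The mean of the lipid list was -0.28, a value that includes Cyp4a14 at -1.72. The macrophage median was 0.11 with a floor of 5 or on the mean, 0.054 with a floor of 7 and 0.079 with none, and the hepatocyte median was -0.039 with none. No paired analysis was possible because each genotype has 1 array. Signal over background is unknown, since detection calls were not used here, and this limits Bcl6b, Socs2 and Cish most.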
